A study of Arabidopsis thaliana with 8 samples.

Results

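Group IX of the ethylene response factor (ERF) family was followed in young inflorescences of Arabidopsis thaliana through 10 genes: ERF15, ERF1B, ORA59, ERF1A, ERF2, ERF13, ERF5, ERF6, ERF104 and ERF105. They were taken by AGI code from the 22281 genes of the deposited FPKM table (fragments scaled by gene length and by library total). Of the 17 genes that make up group IX, the other 7 are described apart. The set was chosen by measured values, since the lower FPKM of ERF15 in the mutant in these same libraries led to it, so the differences between genotypes of all 10 genes are given as a description and without a test.

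The mutant group carries mutations in LSH1, LSH3 and LSH4 together (lsh1 lsh3 lsh4, replicates 5 to 8), and the comparison group is wild type (replicates 1 to 4). All 8 libraries come from the Col-0 strain, grown in long days without any further treatment. The tissue was inflorescence tips with inflorescence and floral meristems and flowers no older than stage 8, and RNA was enriched for poly-A. The labels do not describe the 3 alleles, and they do not say whether each library came from separate plants, so the spread between libraries may be partly technical.

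ERF proteins carry a single AP2/ERF DNA-binding domain, and those of group IX are mostly activators that bind the GCC box of defence gene promoters. ERF1B and ORA59 join the ethylene and jasmonate signals in defence against necrotrophic fungi. ERF5, ERF6 and ERF104 act downstream of the mitogen-activated kinases MPK3 and MPK6, and many group IX transcripts rise within minutes of wounding, cold or handling. ERF15 has been described as an activator of abscisic acid and immune responses.

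The genes fall into subgroups, IXc (ERF15, ORA59, ERF1B), IXa (ERF1A, ERF2, ERF13) and IXb (ERF5, ERF6, ERF104, ERF105). In the RefSeq annotation of assembly TAIR10.1 all 17 group IX genes have 1 exon and 1 transcript. ERF6 and ERF1A are next to each other on chromosome 4 with 0 protein-coding genes between them, and ERF2 and ERF5 on chromosome 5 have 1 between them. ERF104 adjoins ERF107, and ERF1B adjoins ERF98, both of which are group IX genes outside the set.

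The sequences upstream of ERF15 and ORA59 are shown because these genes, the closest pair in upstream sequence, had different levels across the genotypes. ERF1A and ERF2 are shown as a second pair, both highest in wild type replicates 1 and 2, as were ERF13 and the IXb genes. Each is the run of 250 bases before the annotated start, from RefSeq assembly TAIR10.1, read 5′ to 3′ on the gene's strand. Capitals mark the GCC box core (GCCGCC, either strand) and the G box (CACGTG).
ERF15, chr2:13307573-13307822, minus strand: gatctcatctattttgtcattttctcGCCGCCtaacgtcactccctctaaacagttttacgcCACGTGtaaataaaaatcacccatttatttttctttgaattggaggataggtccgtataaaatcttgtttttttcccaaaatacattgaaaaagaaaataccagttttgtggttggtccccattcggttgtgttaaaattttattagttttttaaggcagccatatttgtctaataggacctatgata
ORA59, chr1:1882657-1882906, plus strand: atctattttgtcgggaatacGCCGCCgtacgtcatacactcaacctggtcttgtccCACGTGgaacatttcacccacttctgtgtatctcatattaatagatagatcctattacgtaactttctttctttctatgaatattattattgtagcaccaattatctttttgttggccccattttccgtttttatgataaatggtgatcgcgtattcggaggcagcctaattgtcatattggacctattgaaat
ERF1A, chr4:9758953-9759202, plus strand: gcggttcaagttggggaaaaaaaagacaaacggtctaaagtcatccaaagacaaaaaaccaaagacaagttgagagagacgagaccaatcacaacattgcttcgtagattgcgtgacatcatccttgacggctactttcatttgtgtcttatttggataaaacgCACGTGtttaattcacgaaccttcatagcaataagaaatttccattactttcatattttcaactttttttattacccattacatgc
ERF2, chr5:19172957-19173206, minus strand: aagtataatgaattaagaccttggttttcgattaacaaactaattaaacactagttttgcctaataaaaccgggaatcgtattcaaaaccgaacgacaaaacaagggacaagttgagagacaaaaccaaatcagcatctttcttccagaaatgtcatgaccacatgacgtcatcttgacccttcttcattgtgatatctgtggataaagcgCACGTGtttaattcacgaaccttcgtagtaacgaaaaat

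Upstream of ERF15 and of ORA59 a GCC box core is followed by a G box, and in both the second element starts 36 bases after the first. Aligned end to end, the 2 upstream sequences share 62.0% of positions, the highest of the 45 pairs among the 10 genes, where the median is 50.0%. The pair of ERF1A and ERF2 came at rank 6 of the 45. ERF1A and ERF2 share 53.1% and hold in common an unbroken run of 26 bases around the G box, cgCACGTGtttaattcacgaaccttc. Over all 27443 protein-coding genes, 1.87% have the GCC box core in this window and 6.49% the G box. Among the 10 genes, 2 have the GCC box core (ERF15 and ORA59) and 4 the G box (the same pair, ERF1A and ERF2). The W box core (TTGAC, either strand) occurs in 5 of the 10 (ERF1A, ERF2, ERF13, ERF5 and ERF105), against 44.9% of all genes. The core of the rapid stress response element (CGCGTT, either strand) is in 0 of the 10 windows and in 2.59% of all. These matches describe letters in a short window, not bound sites.

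Across the series, FPKM sums ran from 826022 to 906962, and read totals were not given. Steps between low values put the reads behind 1 FPKM at 1.04 to 1.41 times those of wild type replicate 1 in the 4 libraries where they were settled. Of the mutated genes, LSH4 fell to 5.51 ± 1.42 FPKM in the mutant, against 22.1 ± 2.08 in wild type, and LSH1 fell to 2.87 ± 0.97 FPKM, against 10.1 ± 1.96 (mean ± SD, n = 4 each; limma adjusted p = 0.00773 and 0.0423). The LSH1 call was lost in 6 of 8 fits that left out 1 library and that of LSH4 in 1 of 8, with the difference negative in each. LSH3 had 13.5 ± 2.35 and 17.2 ± 5.28 FPKM and did not pass (limma adjusted p = 0.607), so its level does not separate the genotypes. Of 6 meristem markers 4 had a mean of 1 FPKM or more, and CLV3 and WUS did not. STM had 66.7 ± 3.25 FPKM in the mutant and 87.0 ± 9.41 in wild type, without overlap. The genotypes overlapped for AP1 (60.6 ± 24.7 FPKM in the mutant, 87.1 ± 26.2 in wild type). They also overlapped for KNAT1 (107 ± 19.8 and 123 ± 6.74) and LFY (21.1 ± 9.94 and 21.6 ± 4.73). Of 6 tapetum markers of older flowers only LAP6 had a mean of 1 FPKM or more. Markers of green tissue summed to 8012 to 10481 FPKM in mutant libraries and 5718 to 9174 in wild-type libraries (6 genes), and those of xylem and stem to 105 to 211 and 72.0 to 161 FPKM (5 genes); their part in the results was not tested. In such bulk tissue fewer cells of a type and less RNA per cell cannot be told apart.

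ERF15 (AT2G31230) was lower in the mutant and steady within each genotype. It had 0.50, 0.44, 0.54 and 0.66 FPKM in mutant replicates 5 to 8, against 2.02, 2.37, 3.21 and 2.94 FPKM in wild type replicates 1 to 4. The groups did not overlap, and the highest mutant library lay well under the lowest wild-type library. The wild-type mean was 4.91 times the mutant mean (0.54 ± 0.09 FPKM in the mutant, 2.63 ± 0.54 in wild type; SD, n = 4 each), and the difference in log2(FPKM + 1), mutant minus wild type, was -1.23. On this scale low genes are compressed. With a pseudocount of 0.1 in place of 1 the same difference was -2.09, and the authors' deposited table gives a log2 fold change of -2.3.

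Within each genotype ERF15 varied little: the highest library had 1.49 times the level of the lowest in the mutant and 1.59 times in wild type. The mutant levels were low, all under 1 FPKM, the minimum mean for the limma fit. The mean over the 8 libraries (1.59 FPKM) passed that minimum only through wild type. No counting interval could be given for values this low. Wild type replicate 1, the library with the highest level of 8 of the 10 genes, held the lowest wild-type level of ERF15. Omitting wild type replicate 1 gave a difference of -1.32, and leaving out wild type replicates 1 and 2 gave -1.41.

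ORA59 (AT1G06160), the activator closest to ERF15 in upstream sequence, had much the same level in both genotypes. It had 2.47, 3.17, 1.40 and 1.74 FPKM in mutant replicates 5 to 8, against 1.91, 3.21, 2.84 and 0.76 FPKM in wild type replicates 1 to 4. The groups overlapped over most of their range, with the highest and the lowest library both in wild type. The means were 2.19 ± 0.79 FPKM in the mutant and 2.18 ± 1.09 in wild type (SD, n = 4 each), with a log2 difference of 0.05. In the mutant every library had more ORA59 than the highest library had ERF15, with medians of 2.1 FPKM for ORA59 and 0.52 for ERF15. In wild type the levels of the pair overlapped, with medians of 2.37 FPKM for ORA59 and 2.65 for ERF15.

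ERF1B (AT3G23240), the other integrator of ethylene and jasmonate, was close to the lower limit of detection. It had 1.22, 0.04, 0.35 and 0.19 FPKM in mutant replicates 5 to 8, against 1.41, 0.74, 0.23 and 0.10 FPKM in wild type replicates 1 to 4. Single libraries of both genotypes exceeded 1 FPKM and the others did not, and the groups overlapped in part: mutant replicate 6 lay under every wild-type library and wild type replicate 1 above every mutant library. Its mean over the 8 libraries was 0.54 FPKM, under the minimum of 1 FPKM for the fit, and the log2 difference of -0.16 turned to 0.06 without wild type replicate 1.

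**Figure D1:**
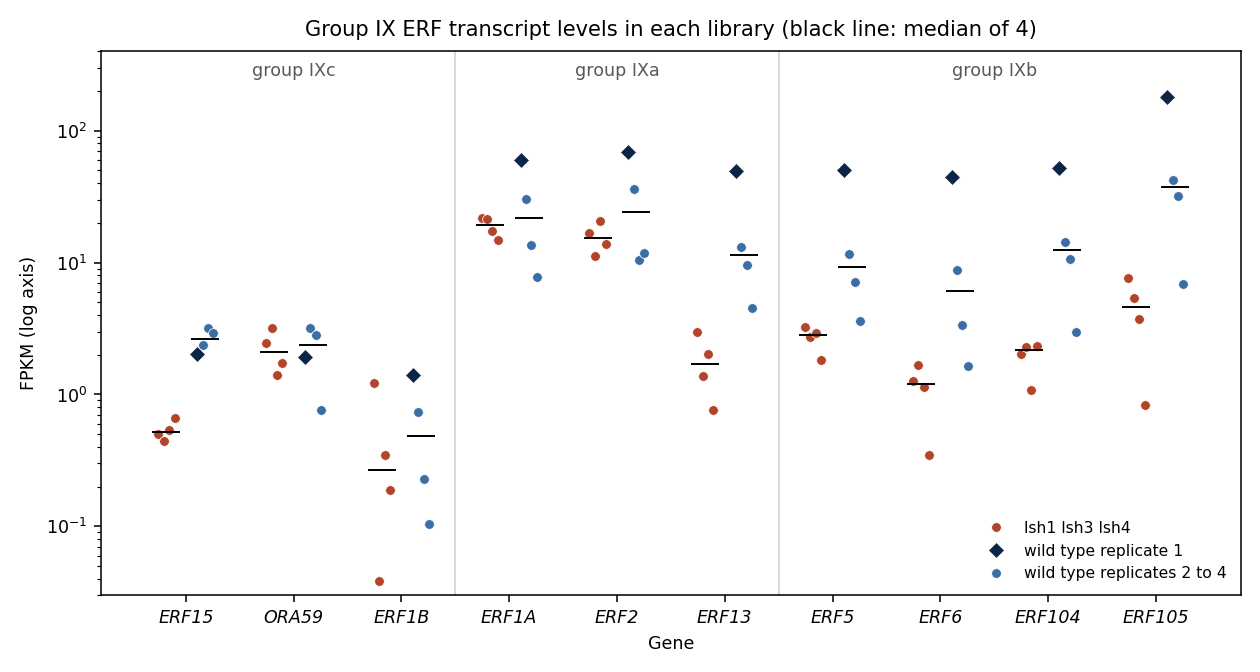
Level of each of the 10 genes in every library, in FPKM on a log axis, with the lsh1 lsh3 lsh4 libraries at the left of each gene and the wild-type libraries at the right; black lines are medians of 4, and the horizontal offset of points within a group has no meaning. ERF15 separates the genotypes with little spread, ORA59 does not, and wild type replicate 1 (diamonds) is the highest library for 8 of the 10 genes.

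The IXb genes were lower in the mutant on average, but with a wide spread among wild-type libraries. ERF105 (AT5G51190), a factor linked to cold tolerance, had 7.68, 5.38, 3.75 and 0.83 FPKM in mutant replicates 5 to 8, against 179.9, 42.3, 32.0 and 6.86 FPKM in wild type replicates 1 to 4. The groups touched, since wild type replicate 4 lay under mutant replicate 5. The highest library had 9.28 times the level of the lowest in the mutant and 26.2 times in wild type. The log2 difference was -3.01 with all libraries, -2.26 with wild type replicate 1 left out and -1.78 with replicate 2 left out too. The gene model of ERF105 overlaps that of AT5G51180, and the use of strand in counting is not stated. AT5G51180 itself had 8.56 ± 0.63 FPKM in the mutant and 8.90 ± 0.72 in wild type. The part of the overlap in the ERF105 levels was not tested.

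ERF104 (AT5G61600), which is released from MPK6 after perception of bacterial flagellin, had 2.03, 2.3, 1.09 and 2.32 FPKM in mutant replicates 5 to 8, against 51.7, 14.4, 10.6 and 2.96 FPKM in wild type replicates 1 to 4. The groups did not overlap, although wild type replicate 4 lay just above the highest mutant library. The log2 difference was -2.27, and -1.23 without wild type replicates 1 and 2.

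ERF5 (AT5G47230) and ERF6 (AT4G17490) are close relatives that restrain leaf growth under osmotic stress. ERF5 had 3.26, 2.71, 2.92 and 1.83 FPKM in mutant replicates 5 to 8, against 50.6, 11.6, 7.10 and 3.63 FPKM in wild type replicates 1 to 4, without overlap. ERF6 had 1.27, 1.67, 1.14 and 0.35 FPKM in mutant replicates 5 to 8, against 44.2, 8.85, 3.37 and 1.65 FPKM in wild type replicates 1 to 4, and wild type replicate 4 lay just under mutant replicate 6. For both, wild type replicate 1 was over 4 times the next library (4.38 times for ERF5, 5.0 times for ERF6). The log2 differences were -1.78 for ERF5 and -2.05 for ERF6. Without wild type replicates 1 and 2 they were -0.75 and -0.73.

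In subgroup IXa, ERF13 (AT2G44840) went with the IXb genes, while ERF1A and ERF2 did not. ERF13 had 2.98, 1.37, 2.03 and 0.76 FPKM in mutant replicates 5 to 8, against 49.0, 13.1, 9.60 and 4.51 FPKM in wild type replicates 1 to 4. No mutant library reached the lowest wild-type library, and the log2 difference was -2.42, or -1.52 without wild type replicates 1 and 2.

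ERF1A (AT4G17500) and ERF2 (AT5G47220), activators of defence genes, were the highest of the 10 genes in the mutant. ERF1A had 21.7, 21.3, 17.4 and 14.8 FPKM in mutant replicates 5 to 8, against 60.0, 30.1, 13.7 and 7.81 FPKM in wild type replicates 1 to 4. ERF2 had 16.8, 11.2, 20.7 and 13.8 FPKM in mutant replicates 5 to 8, against 68.5, 36.3, 10.5 and 11.8 FPKM in wild type replicates 1 to 4. For both genes wild type replicates 1 and 2 lay above every mutant library, and the mutant libraries lay within the wild-type range. The direction turned with the libraries used: the log2 difference of ERF1A was -0.18 with all 8, 0.30 without wild type replicate 1 and 0.78 with replicate 2 left out too, and that of ERF2 was -0.62, -0.12 and 0.42 in the same order.

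The order of levels differed between the genotypes. By median the mutant order was led by ERF1A (19.4 FPKM) and ERF2 (15.3 FPKM), which overlapped each other and lay without overlap above ERF105 (4.57 FPKM), the next gene. In wild type ERF105 came first (37.1 FPKM), ahead of ERF2 (24.1 FPKM) and ERF1A (21.9 FPKM), and every neighbouring pair in the order overlapped. In the mutant the only neighbouring pair without overlap was ERF2 and ERF105.

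**Figure D2:**
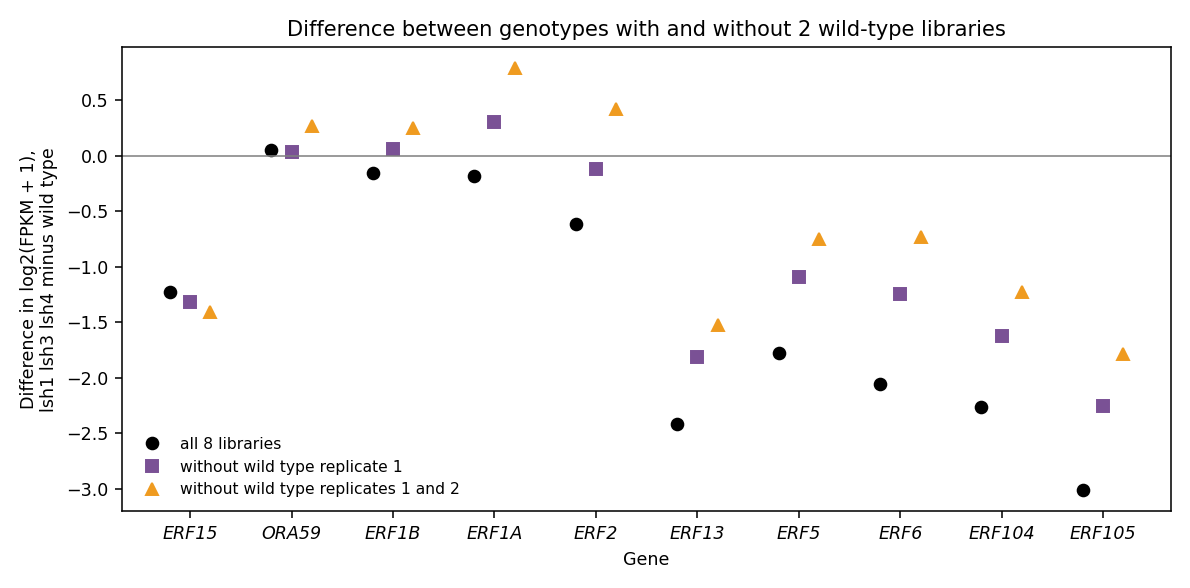
Difference in log2(FPKM + 1), lsh1 lsh3 lsh4 minus wild type, of each gene with all 8 libraries (circles), leaving out wild type replicate 1 (squares) and leaving out wild type replicates 1 and 2 (triangles). ERF15 stays between -1.23 and -1.41, the IXb genes and ERF13 move toward 0 and stay below it, and ERF1A and ERF2 change sign.

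The levels of the 10 genes summed to 60.0, 49.6, 51.3 and 37.3 FPKM in mutant replicates 5 to 8, against 509, 163, 93.2 and 43.1 FPKM in wild type replicates 1 to 4. Wild type replicate 4 thus lay within the mutant range. In ERF105 alone lay 2.22% to 12.8% of that sum in mutant libraries and 15.9% to 35.3% in wild-type libraries. Wild type replicate 1 held the highest level of 8 of the 10 genes, the exceptions being ERF15 and ORA59. The same library was the highest in 17.2% of all genes tested.

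Of the 10 genes, 9 had a mean of 1 FPKM or more and entered the fit across 17706 genes. In the fit 8 of the 9 were lower in the mutant, with a median log2 difference of -1.78, beside a median of -0.01 and 52.4% lower over all genes. Over the whole table limma called 0.0508% of all genes lower, 0.136% higher and 0.186% in either direction at a Benjamini-Hochberg adjusted p under 0.05, and no call is given for the 10 genes. The genotypes did not overlap in 4 of the 9, all lower in the mutant (ERF15, ERF13, ERF5 and ERF104), where 3.74% of all genes separated in that direction and 4.15% in the other. The authors' deposited table lists 6 of the 10 as lower and 0 as higher, beside 1.52% of all genes lower, 2.17% higher and 3.69% in either direction, with log2 fold changes of -2.3 for ERF15, -2.76 for ERF5, -3.36 for ERF104, -3.41 for ERF13, -3.71 for ERF6 and -3.89 for ERF105. The choice of genes used this contrast, so nothing is read from these counts.

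Early stress transcripts moved with the IXb genes across the libraries. The mean level of ERF5, ERF6, ERF104 and ERF105 was 2.0, 1.93, 1.59 and 1.13 log2 units in mutant replicates 5 to 8, against 6.10, 4.08, 3.43 and 2.14 in wild type replicates 1 to 4. A list of 14 touch and early stress genes, 11 of them tested, had mean levels of 2.80, 2.6, 2.56 and 2.37 log2 units in the mutant libraries, against 6.24, 4.55, 3.94 and 2.71 in the wild-type libraries. In both, wild type replicate 1 was highest and wild type replicate 4 lay beside the mutants. All 14 had their highest level in wild type replicate 1, and the zinc finger gene ZAT11 was listed at 0 in all 4 mutant libraries. The summed level of the 11 ran from 98.6 to 209.5 FPKM in the mutant and from 139.96 to 1614 FPKM in wild type. The part of handling or stress in the ERF levels was not tested.

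All 11 tested touch and early stress genes had negative differences (median -1.87, against -0.01 over all genes). By limma 0 of the 11 passed over all genes. At an unadjusted p under 0.05 limma had 8 lower, beside 995 lower of all 17706 genes (12.5% in either direction). The authors' deposited table lists 9 of the 14 as lower, beside 1.52% of all genes. CBF2, CML37 and WRKY40 had mutant means under 1 FPKM and entered the fit through wild type. The list was chosen with earlier results of these data known, so nothing is read from these counts. The cold-response factor gene CBF2 had 0.27 ± 0.14 FPKM in the mutant and 4.43 ± 3.18 in wild type (log2 difference -1.87, limma adjusted p = 0.151), and the zinc finger gene ZAT12 had 3.41 ± 1.90 and 35.9 ± 33.0 FPKM (-2.68, adjusted p = 0.152). Without wild type replicate 1 the median of the list was -1.15.

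**Figure D3:**
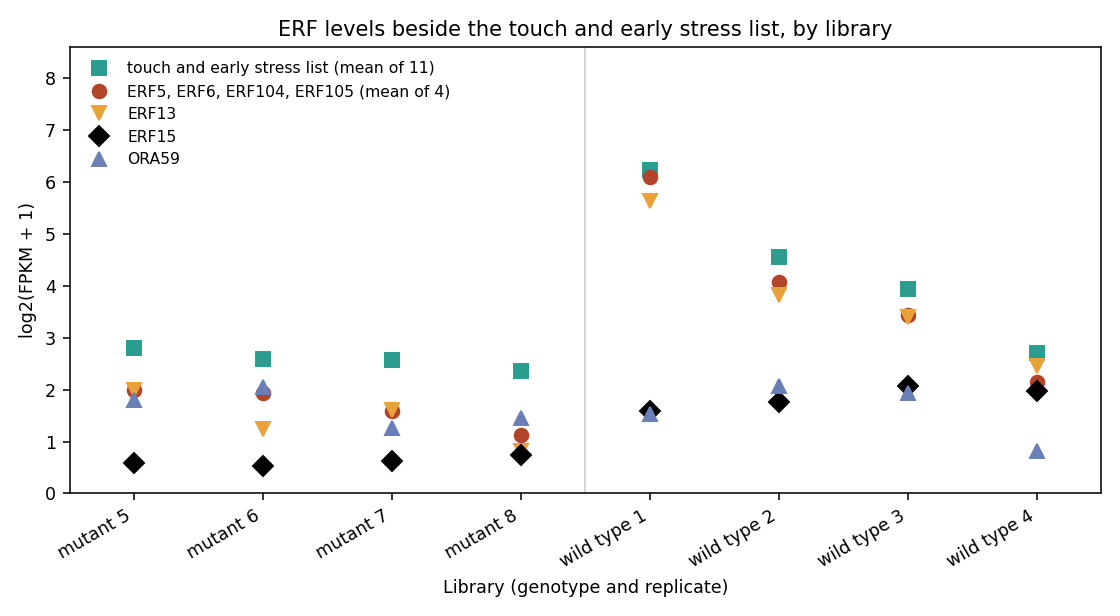
Level in log2(FPKM + 1) of the touch and early stress list (mean of 11 genes), the 4 IXb genes (mean), ERF13, ERF15 and ORA59 in each library, mutant libraries at the left and wild-type libraries at the right. The stress list, the IXb genes and ERF13 are all highest in wild type replicate 1 and close to the mutants in wild type replicate 4, whereas ERF15 is lowest within wild type in replicate 1.

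Genes with the most similar pattern were sought among all genes tested, by Pearson r of log2(FPKM + 1) over the 8 libraries. For ERF15 they were AT1G26660 (r = 0.983), AT3G46220 (0.981), the floral meristem identity gene CAL (0.971), AT3G53440 (0.970) and AUG4 (0.960), which encodes a subunit of the augmin complex of the spindle. AT3G46220 had 4.07 ± 0.86 FPKM in the mutant and 14.1 ± 1.31 in wild type, and CAL had 7.24 ± 1.35 and 14.4 ± 0.95 FPKM. Genes chosen for likeness to ERF15 separate the genotypes through that choice, so no test is given for them. For the mean of the IXb genes they were AT1G32920 (0.992), the zinc finger gene SZF1 (0.991), AT2G03250 (0.990), the ubiquitin ligase gene CMPG2 (0.987) and SRC2 (0.986). SZF1, itself on the touch and early stress list, had 6.87 ± 1.34 FPKM in the mutant and 49.2 ± 59.3 in wild type. The points share 8 libraries of 2 genotypes, and r serves only to rank genes.

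Of the other 7 group IX genes the table holds 4, of which ERF106 and ERF107 were tested and had positive differences, and ERF98 and ERF14 were too low to test and had negative ones. The genes ERF096, ESE1 and ERF091 were not analysed here. ERF106 (AT5G07580), a relative of the wax regulator DEWAX, had 92.2, 84.7, 57.2 and 56.6 FPKM in mutant replicates 5 to 8, against 41.7, 66.3, 50.4 and 45.8 FPKM in wild type replicates 1 to 4. It was thus the most abundant group IX gene in the mutant, and only wild type replicate 2 overlapped the mutant range (log2 difference 0.49, SE 0.20, limma adjusted p = 0.367). Its gene model overlaps that of AT5G07590, which had 13.9 ± 0.96 FPKM in the mutant and 14.6 ± 1.05 in wild type.

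ERF107 (AT5G61590), known as DEWAX, a repressor of cuticular wax genes that lies beside ERF104, had 16.8, 29.0, 11.3 and 15.3 FPKM in mutant replicates 5 to 8, against 4.70, 16.6, 11.1 and 9.20 FPKM in wild type replicates 1 to 4. The groups overlapped, and wild type replicate 1, where ERF104 was highest, had the lowest level (log2 difference 0.78, SE 0.36, limma adjusted p = 0.427). Of these 2 tested genes 0 passed by limma, with 1 higher at an unadjusted p under 0.05, beside 1224 higher of all 17706 genes. ERF98 (AT3G23230) was listed at 0 in all 4 mutant libraries and at 4.21, 0.09, 0 and 0 FPKM in wild type replicates 1 to 4, and ERF14 was listed at 0 in all 4 mutant libraries and had at most 0.37 FPKM in wild type.

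ERF15 lies on chromosome 2 with 7 protein-coding genes between it and LSH3, and ERF1B lies on chromosome 3 with 6 between it and LSH4, so both are neighbours of a mutated gene. Of 19 genes around ERF15, 13 were tested, and their log2 differences ran from -0.30 to 0.20 (median 0.04). The authors' deposited table lists 0 of the 19, beside 3.69% of all genes. By limma 0 of the 13 passed, with 1 at an unadjusted p under 0.05, beside 12.5% of all genes. That 1 gene was ADF6, encoding an actin-depolymerising factor between LSH3 and ERF15, with 41.7 ± 5.5 FPKM in the mutant and 51.7 ± 5.79 in wild type (-0.30, SE 0.11, limma adjusted p = 0.330). The genes next to ERF15 had differences of 0.07 (AT2G31220; 95% interval -1.08 to 1.21) and -0.098 (AT2G31240; -0.27 to 0.07). Among the 13, the 95% intervals other than that of AT2G31220 reached at most -0.56 and 0.55.

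Around ERF1B, 9 of 19 genes were tested, with log2 differences from -0.89 to 0.32 (median 0.10). By limma 0 of the 9 passed, with 1 at an unadjusted p under 0.05, beside 12.5% of all genes. That 1 gene, AT3G23310, had 23.1 ± 2.09 FPKM in the mutant and 20.0 ± 0.71 in wild type (0.20, SE 0.077, limma adjusted p = 0.356). AT3G23170 had the most negative value, with 4.79 ± 1.37 FPKM in the mutant and 11.5 ± 9.23 in wild type (-0.89, limma adjusted p = 0.447). MYB15 (AT3G23250), named after its values were seen, is a stress-induced MYB gene between ERF1B and LSH4. It had 0.030 ± 0.024 FPKM in the mutant and 1.03 ± 1.60 in wild type, too low for the fit, and is listed in the authors' deposited table at a log2 fold change of -5.06.

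**Figure D4:**
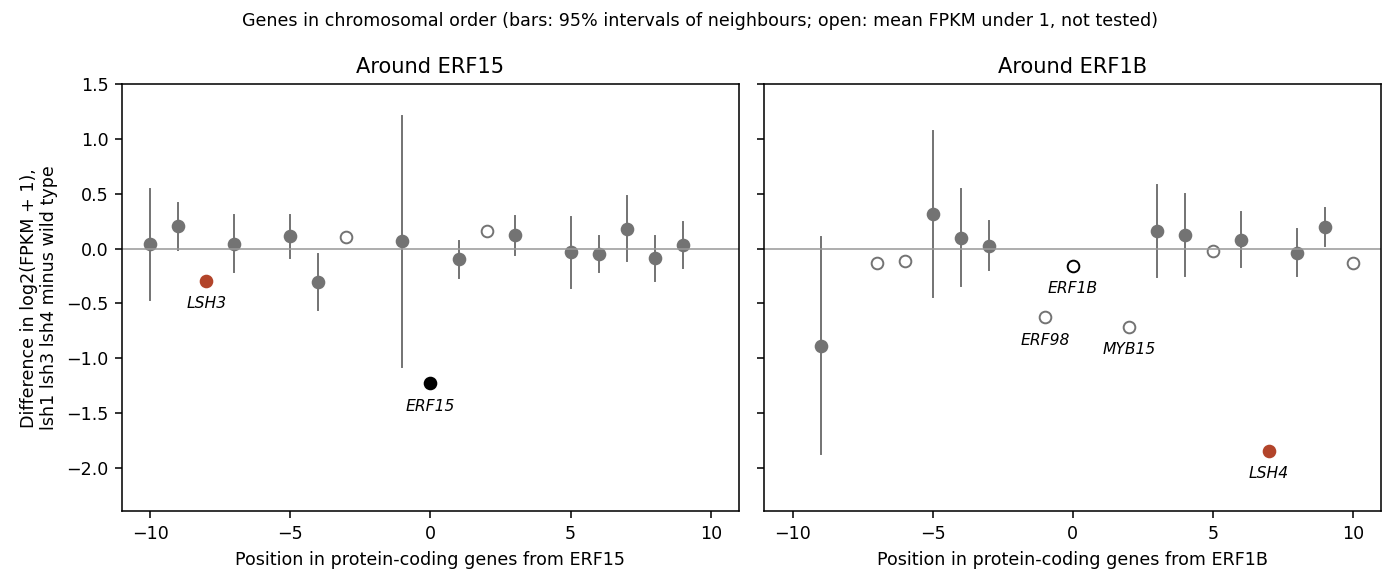
Difference in log2(FPKM + 1), lsh1 lsh3 lsh4 minus wild type, of the protein-coding genes within 10 positions of ERF15 (left) and ERF1B (right), in chromosomal order; bars are 95% intervals of the tested neighbours and open circles are genes with a mean under 1 FPKM. ERF15 lies at -1.23 while its tested neighbours lie between -0.30 and 0.20.

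Genes of ethylene synthesis went both ways, and none passed. Of 6 tested genes limma called 0, while 1 higher and 3 lower ones had an unadjusted p under 0.05 (median 0.18). Over all genes 12.5% had such a p in either direction. The ACC oxidase gene ACO3 (AT1G12010), of the last step of synthesis, had 6.53, 2.02, 2.92 and 6.36 FPKM in mutant replicates 5 to 8, against 0.58, 0.78, 0.59 and 1.15 FPKM in wild type replicates 1 to 4. The groups did not overlap (log2 difference 1.52, SE 0.31, limma adjusted p = 0.108). The ACC synthase gene ACS6, whose protein is stabilised by MPK3 and MPK6, had 4.26, 3.63, 4.4 and 5.18 FPKM in mutant replicates 5 to 8, against 67.9, 17.2, 22.2 and 6.56 FPKM in wild type replicates 1 to 4, with wild type replicate 1 again highest (-2.02, limma adjusted p = 0.192). The authors' deposited table lists ACO3 as higher and ACS6 and ACS11 as lower, beside 2.17% of all genes higher and 1.52% lower. ACS11 had 0.27 ± 0.11 FPKM in the mutant and 1.78 ± 1.66 in wild type. With means under 1 FPKM in 1 genotype, ACO3 (wild type) and ACS11 (mutant) entered the fit through the other, so nothing is read from these counts.

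Ethylene receptors and signalling genes differed little. Of 14 tested genes 0 passed by limma, and 0 had an unadjusted p under 0.05 (median 0.03), and the authors' deposited table lists 0. The receptor gene ETR2 had the smallest p, with 11.6 ± 2.63 FPKM in the mutant and 15.7 ± 6.08 in wild type (log2 difference -0.36, 95% interval -0.96 to 0.24, limma adjusted p = 0.594), followed by the receptor gene ERS2 (-0.20, limma adjusted p = 0.700). Without wild type replicates 1 and 2 these 2 differences had the opposite sign (0.034 and 0.095). Of 6 jasmonate perception genes 0 passed by limma, with 1 at an unadjusted p under 0.05, beside 12.5% of all genes. MYC4, a bHLH activator, had 15.7 ± 2.23 FPKM in the mutant and 12.9 ± 1.1 in wild type (0.26, limma adjusted p = 0.393).

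Of 8 genes of the MPK3 and MPK6 cascade and the CAMTA calcium-dependent regulators, 0 passed by limma and 0 had an unadjusted p under 0.05 (median -0.38, or -0.14 without wild type replicate 1). The kinase gene MKK9 had 11.6 ± 0.49 FPKM in the mutant and 26.0 ± 17.8 in wild type (-0.85, limma adjusted p = 0.453), and CAMTA1 had 26.8 ± 2.93 and 23.3 ± 0.79 FPKM (0.19, adjusted p = 0.408). In 7 of the 8, wild type replicate 1 was the highest library.

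Known targets gave few tests at these levels. Of 4 genes regulated by ERF5 or ERF6, 3 were tested and 0 passed by limma, with 1 lower at an unadjusted p under 0.05 (median -1.68, or -0.72 without wild type replicate 1). Over all genes 12.5% had such a p in either direction. MYB51, 1 of the 3, had 0.94 ± 0.23 FPKM in the mutant and 3.19 ± 3.58 in wild type, so it entered the fit through wild type. ZAT10, a zinc finger repressor, had 2.03 ± 0.90 FPKM in the mutant and 23.6 ± 26.9 in wild type (-2.37, limma adjusted p = 0.245), and WRKY33, a regulator of camalexin synthesis, had 3.92 ± 0.62 and 35.2 ± 54.3 FPKM (-1.68, adjusted p = 0.464). Of 9 defence genes downstream of ERF1B and ORA59, 5 were in the table and only the defensin gene PDF1.1 was tested (4.23 ± 1.34 FPKM in the mutant and 4.90 ± 2.26 in wild type, limma adjusted p = 0.866). PR4, encoding a hevein-like protein and named after its values were seen, had 0.62, 0.41, 0.89 and 0.59 FPKM in mutant replicates 5 to 8, against 1.25, 1.25, 1.25 and 1.5 FPKM in wild type replicates 1 to 4. Those groups did not overlap, but its mean was under 1 FPKM and it was not tested.

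Other ERF groups were set beside group IX. All 7 tested group VIII repressors had negative differences (median -0.57, or -0.41 without wild type replicate 1), beside 52.4% of all genes. By limma 0 of the 7 passed, with 4 lower at an unadjusted p under 0.05, beside 995 of all 17706 genes. Wild type replicate 1 was the highest library in 5 of the 8 group VIII genes listed. This list too was chosen with earlier results known. ERF11 had 1.77 ± 0.46 FPKM in the mutant and 8.51 ± 8.03 in wild type (-1.45, limma adjusted p = 0.272), and ERF12 had 19.6 ± 4.16 and 29.8 ± 7.19 FPKM (-0.57, adjusted p = 0.295). Of 12 group VII and X genes 5 were tested and 0 passed by limma, while 1 higher and 1 lower gene had an unadjusted p under 0.05. Over all genes 12.5% had such a p in either direction. ERF109, a redox-responsive factor, had 0.47 ± 0.55 FPKM in the mutant and 4.73 ± 4.86 in wild type (-1.60, limma adjusted p = 0.335). With a mutant mean under 1 FPKM, ERF109 entered the fit through wild type, so nothing is read from its p. RAP2.2, an activator of hypoxia genes, had 154 ± 23.7 FPKM in the mutant and 123 ± 18.8 in wild type (0.33, limma adjusted p = 0.385).

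RAP2.6, a jasmonate-responsive factor of group X named after its values were seen, had 1.38, 1.81, 0.58 and 3.40 FPKM in mutant replicates 5 to 8, against 0.087, 0.062, 0 and 0 FPKM in wild type replicates 1 to 4. Its mean was under 1 FPKM, so it was not tested, and the authors' deposited table lists it as higher with a log2 fold change of 5.62.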

How the data were processed

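RNA-seq levels came from 4 mutant and 4 wild-type libraries. Values in the authors' deposited expression file are FPKM for each gene in each library. RSEM, DESeq2 and TAIR10 are named, without versions, per the submitters' processing notes; the aligner is not given in the sources used here. Per the file headers, the comparison file deposited by the authors holds log2 fold changes (mutant over wild type), with a raw and an adjusted p-value. FPKM hides read totals, so depth is unknown and no counting interval could be given.

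From these, log2(FPKM + 1) of the 17706 genes averaging 1 FPKM or more was modelled by genotype in limma 3.58.1 (R 4.3.3) with a mean-variance trend, 2-sided, and Benjamini-Hochberg adjustment at 0.05. The code was tested on simulated data. The 10 genes and all lists were chosen with earlier results of these data known. Named from each list were genes past the threshold, otherwise the pair with the smallest p. Neighbours with the smallest p and those next to ERF15 were also named. So were the 5 genes outside the set most similar to each pattern. Alternatives covered scaling, filter, pseudocount, robust variance and left-out libraries. Gene order, exons and sequence come from RefSeq TAIR10.1; the deposited files hold no coordinates. Figures used matplotlib 3.10.9 in Python 3.11.15.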

Additional observations from a re-analysis of the deposited data

Results flagged for a closer look

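In groups of 4 libraries, a library was singled out when its gap to the nearest other library, as a share of the group's range in log2(FPKM + 1), exceeded Dixon's critical value at the 95% level. Of 112 gene and genotype combinations 7 met this, and chance gives about 1 in 20. None was a member of the set. ERF98, next to ERF1B, had 4.21 FPKM in wild type replicate 1, and 0, 0 and 0.094 in the remaining wild-type libraries. ZAT12 had 6.27 FPKM in mutant replicate 5, against 2.43 to 2.48 in the other mutants, and RAP2.2 had 189 FPKM in mutant replicate 6, against 139 to 145. Mutant replicate 8 stood apart for AT2G31220, next to ERF15, with 7.65 FPKM against 0.85 to 1.16, for AT2G31150 with 28.5 FPKM against 23.7 to 24.4, and for AT2G03250 with 0.870 FPKM against 1.004 to 1.03. AT3G23310 had 21.0 FPKM in wild type replicate 3, while the remaining wild-type libraries had 19.6 to 19.7.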

How the results depend on the processing

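No paired analysis was possible because the genotypes share no replicate number. The count of genes called over the whole table (33, with 24 higher and 9 lower) was 19 (14 and 5) after rescaling to TPM, 12 (7 and 5) with no filter, and 0 (0 and 0) without wild type replicates 1 and 2, an alternative chosen after seeing the data, where an unadjusted p under 0.05 in limma gave 782 higher and 519 lower. Leaving out 1 library gave 0 to 104 calls, 0 to 79 higher and 0 to 25 lower; the 0 was without wild type replicate 2 (843 higher and 582 lower unadjusted) and the 104 came on omitting wild type replicate 3. With wild type replicate 1 omitted there were 10 calls and leaving out replicate 4 gave 4, and without mutant replicate 5, 6, 7 or 8 there were 4, 5, 5 and 8. The LSH1 call was lost with no filter (adjusted p = 0.0582), without wild type replicates 1 and 2 (0.297), on omitting mutant replicate 5 (0.153), 6 (0.0665) or 7 (0.103), and on omitting wild type replicate 1 (0.0800), 2 (0.158) or 4 (0.0725). The LSH4 call was lost on omitting wild type replicate 2 (0.0626) and without wild type replicates 1 and 2 (0.0817). The log2 difference of ERF15 was negative in every setting that kept it, from -2.09 to -1.16. List and neighbour calls were 0 to 0 throughout, and 7 to 9 members were lower when 1 library was left out. AT2G31220 turned to -0.0111 with a pseudocount of 0.1, to -0.21 without wild type replicates 1 and 2 and ranged from -0.47 to 0.28 without 1 library. ETR2 turned to 0.034 and ERS2 to 0.095 without wild type replicates 1 and 2, and PDF1.1 to 0.0958 without wild type replicate 3 (from -0.30 to 0.0958 without 1 library). The cause of these changes was not tested.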
